A study of Mus musculus with 6 samples.

Results

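The genes described here are 38 goblet cell genes of the mouse colon, measured by RNA-seq in a colon epithelial fraction from wild type mice and from Lingo3-/- mice. They were picked by symbol from the deposited table that compares the genotypes, and their raw counts were read by Ensembl identifier from the deposited count table. All 38 were found in both tables, among 15138 genes in the first and 46078 in the second. All 38 also passed the filter on low counts and were among the 16856 genes tested.

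Each genotype had 3 libraries. Every library came from mice 2 months old kept without treatment, and no allele other than the Lingo3 knockout is named in the labels. No Cre or promoter is named, and how the knockout allele was made is not given in the labels used here. The labels do not say that the 3 libraries of a genotype came from separate mice, so p-values measure the spread between libraries, which may be technical. The label of wild type replicate 1 names EDTA with DTT for the wash that released the epithelium, the labels of the other 5 name EDTA alone, and the protocol shared by all 6 names both. Below, the 3 values of a genotype are always given in the order of replicates 1, 2 and 3.

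Goblet cells are the mucus-secreting cells of the gut. In the colon they store the gel-forming mucin Muc2 in granules, together with smaller proteins that crosslink, cleave or defend the mucus, and they release the granules at the surface and in the crypt. Making so much secreted protein requires disulfide-forming enzymes in the endoplasmic reticulum, a Golgi that packs granules, Rab proteins and their effectors that carry granules to the membrane, and ion channels that unfold the mucus once released. Atoh1 commits a crypt cell to the secretory lineage, and Spdef and the Foxa factors act in goblet cell maturation.

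In the knockout libraries 18 of the 38 genes rose, 0 fell and 20 did not pass the test (edgeR quasi-likelihood test, 2-sided, adjusted p under 0.05 over all genes tested). Over all 16856 genes, 9.43% were called higher and 5.97% lower. The 38 genes were chosen with earlier results of these data known, so comparisons of them with all genes are descriptions. The rises ran from a log2 fold change of 0.48 to 1.33, that is from 1.40-fold to 2.51-fold. The 20 genes that did not pass had values from 0.01 to 1.87, and 7 of them had an unadjusted p under 0.05. All 38 log2 fold changes were above 0, against 47.2% of all genes, and this was 35 of 38 with upper-quartile scaling and 32 of 38 with scaling to 9 pan-epithelial genes. The median was 0.54 over the 38 genes and -0.03 over all genes. For 27 of the 38 every knockout library lay above every wild type library, which held for 19.7% of all genes, and for none did every knockout library lie below. In bulk RNA, more goblet cells and more of these transcripts per goblet cell cannot be told apart.

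**Figure D1:**
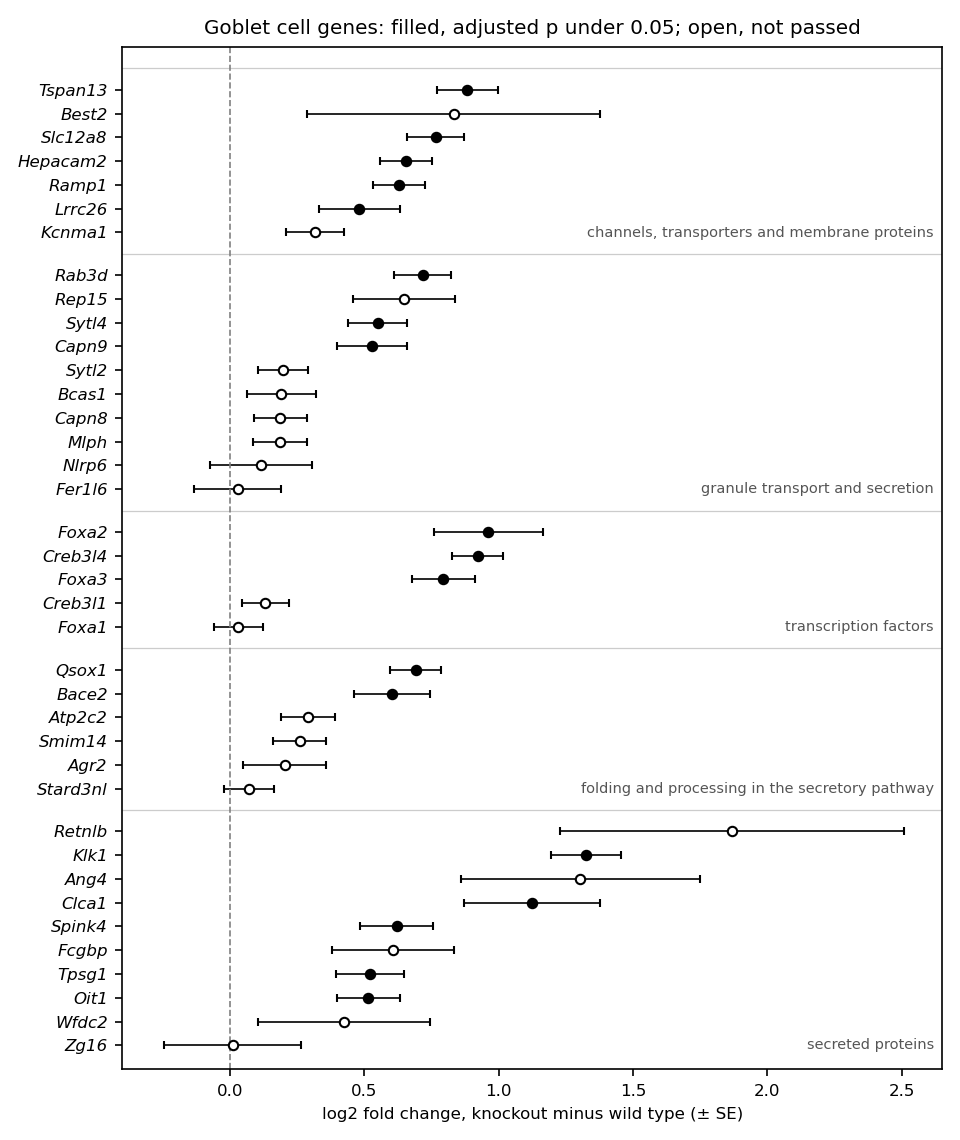
Log2 fold change of each of the 38 goblet cell genes (knockout minus wild type, x axis, ± SE of edgeR's fit, 3 libraries per genotype), grouped by role. Filled circles are the 18 genes past an adjusted p of 0.05 and open circles the 20 others, and all lie to the right of 0, from 0.01 for Zg16 to 1.87 for Retnlb.

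Total counts over genes were 25010618, 28029583 and 25151356 in wild type and 17200931, 16762320 and 11868000 in knockout, so the knockout values rest on fewer reads. Mitochondrially encoded genes took 45.3 to 48.4% of counts in wild type and 34.7 to 36.3% in knockout. Levels are given as CPM, the counts relative to library size after TMM scaling. Lingo3 itself had 3, 3 and 1 counts in wild type and 2, 0 and 1 in knockout, at or under the 3 counts taken as the floor in every library, so it does not check the labels here. Epithelial origin was checked with 9 pan-epithelial genes, whose summed level was 3811 to 4685 CPM in wild type and 4615 to 5529 CPM in knockout. T cell markers fell in 17 of 19 cases, from a summed 534 to 632 CPM to 209 to 346 CPM, and 5 of 12 B and plasma cell markers fell. The latter count was 1 when knockout replicate 2 or 3 was left out, 3 when wild type replicate 2 or 3 was, and 8 when wild type replicate 1 was. The plasma cell genes Igha (0.34), Jchain (0.25) and Derl3 (0.25) had log2 fold changes above 0 and did not pass. All other genes of that list were below 0. Fibroblast markers summed to 465 to 1337 CPM against 307 to 633 CPM, with 0 of 9 past the test, while 4 of 9 fell when wild type replicate 3 was left out and DESeq2 called 2. The part of these shifts in the rise of the goblet cell genes was not tested. When libraries were scaled to the 9 pan-epithelial genes, 17 of the 38 rose and 0 fell, with a median of 0.41 where that of all genes moved by -0.13. In that fit 3.60% of all genes tested were higher. The 9 genes were not all level in the reported fit. Their median log2 fold change was 0.09, and 1 of them, Krt18, rose (0.49 ± 0.11, edgeR adjusted p = 0.0131). Of the 18 called before, 15 kept the call, Tpsg1, Sytl4 and Lrrc26 lost it, and Fcgbp and Rep15 gained it.

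The region upstream of a gene is shown for 4 genes that rose, because these windows hold a short match to a binding motif of a factor of this lineage. RefSeq windows (GRCm38.p6) were matched for 25 of the 38 genes, 15 of them among the 18 that rose, and genes with several starts have several windows, 37 in all. Each line is the 250 bases before the RefSeq start, 5′ to 3′ on the gene's strand, and capitals mark the motif match. Those of Hepacam2, Oit1 and Slc12a8 hold the E-box CAGCTG, a motif of basic helix-loop-helix factors such as Atoh1, and that of Capn9 holds the SPDEF core CCGGAT on the opposite strand. The windows lie at chr6:3494499-3494748 (minus strand) for Hepacam2, chr14:8378764-8379013 (minus) for Oit1, chr16:33517945-33518194 (plus) for Slc12a8 and chr8:124575861-124576110 (plus) for Capn9. Those of Hepacam2 and Slc12a8 belong to RefSeq starts inside the longer GENCODE gene model, and Slc12a8 has other RefSeq starts whose windows hold none of the motifs.
Hepacam2: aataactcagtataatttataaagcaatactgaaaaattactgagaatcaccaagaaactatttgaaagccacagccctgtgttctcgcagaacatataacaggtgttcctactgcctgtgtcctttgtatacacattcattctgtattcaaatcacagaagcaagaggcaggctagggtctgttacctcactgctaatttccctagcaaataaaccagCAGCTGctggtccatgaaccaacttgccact
Oit1: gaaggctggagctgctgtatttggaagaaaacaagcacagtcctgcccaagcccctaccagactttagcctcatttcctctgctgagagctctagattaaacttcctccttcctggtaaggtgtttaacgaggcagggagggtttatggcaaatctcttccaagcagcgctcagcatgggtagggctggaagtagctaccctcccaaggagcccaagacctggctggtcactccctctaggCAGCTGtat
Slc12a8: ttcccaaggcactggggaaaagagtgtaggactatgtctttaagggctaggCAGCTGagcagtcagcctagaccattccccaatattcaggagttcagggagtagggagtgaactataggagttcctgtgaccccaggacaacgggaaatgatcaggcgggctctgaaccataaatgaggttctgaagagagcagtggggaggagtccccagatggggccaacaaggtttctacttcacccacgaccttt
Capn9: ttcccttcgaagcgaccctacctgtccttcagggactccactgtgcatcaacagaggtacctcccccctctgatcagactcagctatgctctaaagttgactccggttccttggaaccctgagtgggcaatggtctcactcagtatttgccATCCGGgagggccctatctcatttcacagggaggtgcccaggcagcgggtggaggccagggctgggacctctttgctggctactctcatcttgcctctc

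Both strands were searched for 4 motifs, and a gene was counted where any of its windows held a match. The E-box CAGCTG matched in 6 of 25 genes (Fcgbp, Hepacam2, Mlph, Nlrp6, Oit1 and Slc12a8), which is 24.0% against 14.7% of 27025 genes, and in 3 of the 15 genes that rose. The forkhead motif TGTTTAC, bound by Foxa factors, matched in 2 of 25 (Foxa1 and Smim14) against 3.54% of all genes. The core GACGTG of CREB3L factors and XBP1 matched in 2 of 25 (Mlph and Smim14) against 5.87%, and the SPDEF core in 2 of 25 (Capn9 and Smim14) against 5.63%. None of the 22 windows of the 15 genes that rose held the forkhead or CREB3L letters. These are matches of letters in a short window and are given as a description.

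Among the 10 genes grouped as secreted proteins, which include the membrane-anchored Tpsg1, 5 rose (Clca1, Klk1, Spink4, Oit1 and Tpsg1). None fell, and the median log2 fold change was 0.61. Klk1, tissue kallikrein, a serine protease that releases kinins (chromosome 7, 44225360 to 44229618), had 229, 211 and 174 CPM in wild type and 482, 507 and 550.3 CPM in knockout. The libraries of each genotype lay close together and the genotypes were far apart. Of the genes that rose it changed the most, by 1.33 ± 0.13 on the log2 scale, which is 2.51-fold (SE, n = 3 per genotype, edgeR adjusted p = 0.000785). Of the 50-base windows of Klk1 transcripts, 24.0% also occur in transcripts of Klk1b genes, but those genes drew 0 to 34 counts each over all 6 libraries.

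Clca1, a metalloprotease secreted into the mucus (chromosome 3, 145003817 to 145032776), had 2854, 1436 and 1583 CPM in wild type and 4321, 4792 and 3691 CPM in knockout. Wild type replicate 1 was well above the other wild type libraries and still below every knockout library. The log2 fold change was 1.12 ± 0.25 (SE; edgeR adjusted p = 0.0163). Leaving out wild type replicate 3 ended the call (1.01, adjusted p = 0.0506), and so did leaving out knockout replicate 2 (1.04, adjusted p = 0.0560).

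Spink4, a Kazal-type protease inhibitor, had 248, 294 and 261 CPM against 342, 464 and 428 CPM, and rose by 0.62 ± 0.14 on the log2 scale (edgeR adjusted p = 0.0115). Oit1, a secreted protein also named Fam3d, had 499, 454 and 495 CPM against 689, 665 and 717 CPM, and rose by 0.52 ± 0.12 (adjusted p = 0.0138). Neither gene's groups overlapped, and both lost the call without knockout replicate 3, at an adjusted p of 0.0543 for Spink4 and 0.0549 for Oit1. Tpsg1, a tryptase with a membrane anchor, had 14.9, 15.4 and 12.9 CPM against 23.1, 17.5 and 21.6 CPM, and rose by 0.52 ± 0.13 (adjusted p = 0.0176). The call was lost when wild type replicate 3 (adjusted p = 0.0534), knockout replicate 1 (0.0520) or knockout replicate 3 (0.0720) was left out, and when scaled to the pan-epithelial genes (0.126). Tpsg1 is also made by mast cells. Of 10 mast cell markers 5 could be tested. Kit, also a marker of deep crypt secretory cells, rose, while the proteases Mcpt1 (0.19), Mcpt2 (-0.11), Cpa3 (0.35) and Cma1 (0.69) did not pass. The list summed to 56.9 to 63.1 CPM in wild type and 82.6 to 88.8 CPM in knockout, of which Kit made 52.3 and 75.4 CPM on average. The tryptase Tpsab1 was at 0. Another tryptase on the list, Tpsb2, had 9, 9 and 14 counts in wild type and 6, 2 and 9 in knockout and was not among the genes tested. The part of mast cells in the Tpsg1 values was not tested. Cacna1h overlaps Tpsg1 on the other strand, and their reads can be told apart only if the counting used strand, a setting not given here.

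The 5 secreted genes that did not pass include the largest log2 fold change of the 38, that of Retnlb. Retnlb, an antibacterial resistin-like protein, had 77.2, 134 and 38.2 CPM in wild type and 147, 381 and 384 CPM in knockout. All knockout libraries were above all wild type libraries, but the highest wild type library was near the lowest knockout library. Its log2 fold change of 1.87 had an SE of 0.64 and an edgeR adjusted p of 0.130. Ang4, an antimicrobial ribonuclease, had 162, 147 and 61.5 CPM against 219, 402 and 293 CPM, a difference of 1.30 ± 0.44 (adjusted p = 0.122). Ang4 passed without wild type replicate 3 (log2 fold change 1.00, adjusted p = 0.0398), the library lowest in both genes. Ang4 is also made by Paneth cells. Of 7 Paneth cell markers 4 could be tested and 1, the lectin gene Itln1, rose (2 when wild type replicate 3 was left out). The list summed to 13.1 to 21.8 CPM in wild type and 26.2 to 38.1 CPM in knockout, of which Itln1 made 4.75 and 17.6 CPM on average. Lyz1 (0.42), Defa24 (0.47) and Mmp7 (0.42) did not pass in the reported fit. The part of Paneth cells in the Retnlb and Ang4 values was not tested.

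Fcgbp, a large mucus protein that binds the Fc part of IgG and had the most counts of the 38, had 3927, 2065 and 2397 CPM in wild type and 4753, 4178 and 3852 CPM in knockout. The groups overlapped only through wild type replicate 1, which was above knockout replicate 3. The log2 fold change was 0.61 ± 0.23 (edgeR adjusted p = 0.0932), and without wild type replicate 1 it was 0.96 with an adjusted p of 0.00412. Zg16, a lectin that aggregates Gram-positive bacteria in the mucus, had 1196, 575 and 1053 CPM against 1075, 793 and 979 CPM. The genotypes averaged 941 ± 325 and 949 ± 144 CPM (SD, n = 3) and differed by 0.01 ± 0.25 on the log2 scale (adjusted p = 0.982), which turned to -0.22 without wild type replicate 2. Wfdc2, a whey acidic protein domain protein with antiprotease activity, had 57.4, 25.6 and 40.2 CPM against 47.8, 67.3 and 49.7 CPM and did not pass (0.42 ± 0.32, adjusted p = 0.420).

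**Figure D2:**
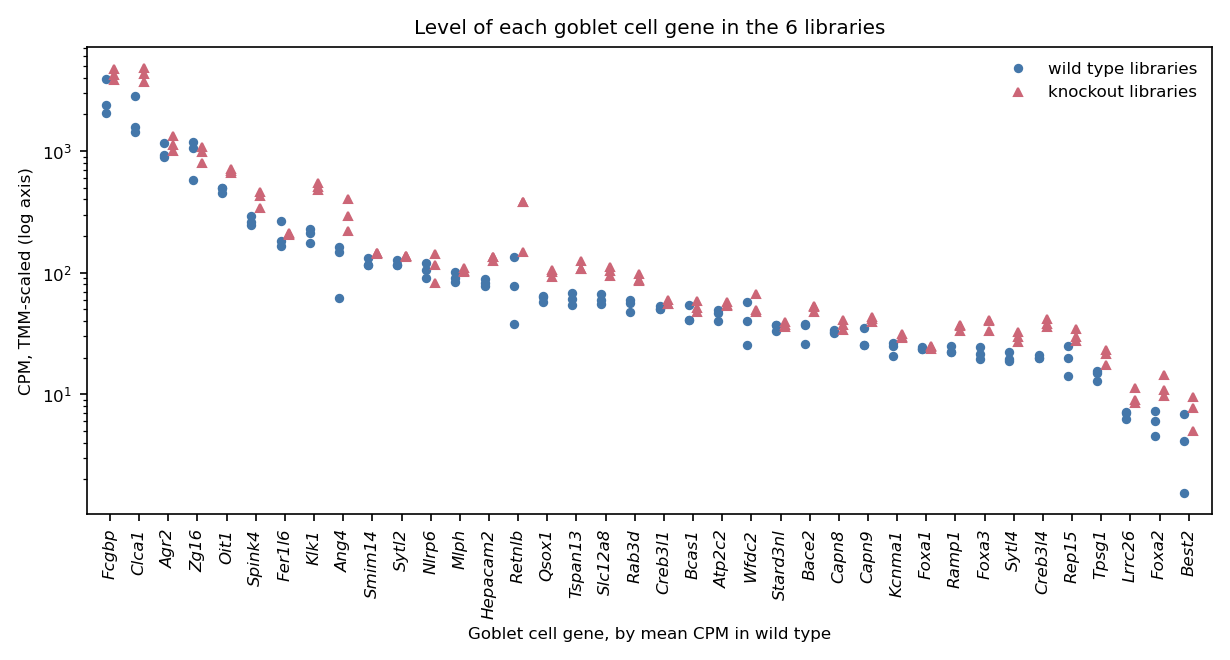
Level of the 38 goblet cell genes in each library (CPM, TMM-scaled, log axis), ordered by mean level in wild type, with circles for 3 wild type and triangles for 3 knockout libraries. Fcgbp and Clca1 stand at the left with the most counts, and the points of Klk1, Tspan13, Slc12a8 and Creb3l4 separate by genotype with little spread, while those of Zg16, Nlrp6 and Best2 overlap.

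Within the group named for folding and processing in the secretory pathway, 2 of 6 rose and 0 fell, with a median of 0.27. The group also holds the membrane proteins Smim14 and Stard3nl, for which no such function is given here. Qsox1, a sulfhydryl oxidase that makes disulfide bonds, had 63.5, 64.2 and 57.0 CPM against 92.5, 101 and 105 CPM. The gap between the genotypes was wider than the spread in either, and the log2 fold change was 0.69 ± 0.10 (edgeR adjusted p = 0.00185). Bace2, an aspartic protease of the secretory pathway, had 37.08, 38.005 and 25.72 CPM against 53.7, 47.1 and 52.4 CPM. It rose by 0.60 ± 0.14 (adjusted p = 0.0173), and without knockout replicate 3 the adjusted p was 0.0755. Agr2, the disulfide isomerase needed for mucin folding, had 902, 1159 and 928 CPM against 1005, 1113 and 1322 CPM. The groups overlapped and the difference of 0.20 ± 0.15 did not pass (adjusted p = 0.395).

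The Golgi calcium and manganese pump Atp2c2 had 39.8 to 49.1 CPM in wild type and 53.3 to 57.3 CPM in knockout. This difference of 0.29 ± 0.10 was just short of the threshold (edgeR adjusted p = 0.0715) and passed without wild type replicate 1 (0.38, adjusted p = 0.0322). Smim14, a small membrane protein, had 115 to 132 CPM against 143 to 146 CPM (0.26 ± 0.10, adjusted p = 0.0934). Stard3nl, an endosomal membrane protein, had 32.9 to 37.1 CPM against 35.8 to 39.3 CPM (0.07 ± 0.09, adjusted p = 0.637).

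Of the 5 transcription factors, 3 rose and 0 fell, with a median of 0.79. The forkhead factor Foxa3 had 24.5, 21.6 and 19.6 CPM against 32.9, 40.1 and 40.9 CPM, and rose by 0.79 ± 0.12 on the log2 scale (edgeR adjusted p = 0.00214). Foxa2 had 7.34, 4.52 and 6.07 CPM against 9.63, 14.3 and 10.8 CPM, and rose by 0.96 ± 0.20 (adjusted p = 0.0105). Foxa1 did not follow its paralogs. It had 24.5, 23.7 and 23.4 CPM against 25.1, 23.6 and 24.6 CPM, so that the genotypes overlapped within a narrow range (0.03 ± 0.09, adjusted p = 0.840). The difference between the paralogs' changes was not tested.

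Creb3l4, a membrane-bound factor released by cleavage in the Golgi, had 20.01, 20.89 and 19.73 CPM in wild type and 37.7, 35.9 and 41.4 CPM in knockout. It was the steadiest of the genes that rose in wild type. Its means were 20.2 ± 0.602 and 38.4 ± 2.81 CPM (SD, n = 3), and it rose by 0.92 ± 0.10 on the log2 scale (edgeR adjusted p = 0.000785). Creb3l1, its relative of the same type, had 50.6, 53.7 and 50.7 CPM against 60.0, 55.0 and 54.9 CPM. Its groups did not overlap, but the change of 0.13 ± 0.09 did not pass (adjusted p = 0.332). No 50-base window was shared between these relatives, so their counts are not mixed by identical sequence.

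Granule transport and secretion held 10 genes, of which 3 rose and 0 fell, with the lowest median of the 5 roles, 0.19. Rab3d, a GTPase of secretory granules, had 56.3, 60.2 and 47.8 CPM against 85.7, 87.8 and 96.7 CPM, and rose by 0.72 ± 0.11 (edgeR adjusted p = 0.00216). Sytl4, a synaptotagmin-like effector of Rab27, had 19.0, 22.3 and 19.4 CPM against 29.7, 26.8 and 32.5 CPM, and rose by 0.55 ± 0.11 (adjusted p = 0.00737). In both, the lowest knockout library was above the highest wild type library, and Sytl4 lost the call only with scaling to the pan-epithelial genes (adjusted p = 0.0708). Capn9, a calpain protease of the digestive tract, had 35.3, 25.3 and 25.2 CPM against 41.5, 43.0 and 39.3 CPM (0.53 ± 0.13, adjusted p = 0.0197). Leaving out either of wild type replicates 2 (adjusted p = 0.0608) and 3 (0.0586), or of knockout replicates 2 (0.0624) and 3 (0.0609), ended the call of Capn9.

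Rep15, an effector of Rab15, had 24.8, 14.2 and 19.8 CPM against 29.7, 34.6 and 27.5 CPM. The genotypes did not overlap, the difference was 0.65 ± 0.19 (edgeR adjusted p = 0.0523), and without wild type replicate 1 it was 0.88 with an adjusted p of 0.00631. The other 6 genes of this role had log2 fold changes of 0.03 to 0.20 and did not pass. Sytl2, another Rab27 effector, had 115 to 127 CPM against 135 to 138 CPM, and Mlph, which links Rab27 to myosin, had 84.2 to 102 CPM against 101 to 110.2 CPM. Capn8, the calpain partner of Capn9, had 32.2 to 34.0 CPM against 34.1 to 41.2 CPM, and Bcas1 had 41.1 to 54.7 CPM against 47.3 to 58.1 CPM. Nlrp6, an inflammasome receptor with a role in granule release, had 119, 89.9 and 105 CPM against 82.8, 117 and 141 CPM. The ferlin gene Fer1l6 had 267, 183 and 165 CPM against 206, 208 and 212 CPM. For Nlrp6 the knockout libraries spanned the wild type ones, and for Fer1l6 the wild type libraries spanned the knockout ones.

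In the group of channels, transporters and membrane proteins 5 of 7 rose and 0 fell, with a median of 0.65. Tspan13, a tetraspanin, had 60.6, 68.2 and 54.0 CPM against 106, 107 and 125 CPM, and rose by 0.88 ± 0.11 (edgeR adjusted p = 0.00132). Slc12a8, of the cation-chloride cotransporter family, had 55.2, 66.9 and 59.9 CPM against 103, 94.4 and 112 CPM, and rose by 0.77 ± 0.11 (adjusted p = 0.00180). Both showed no overlap between genotypes. Hepacam2, an immunoglobulin-type adhesion protein whose upstream window with the E-box is printed above, had 89.3, 83.1 and 78.1 CPM against 136, 134 and 124 CPM (0.65 ± 0.10, adjusted p = 0.00216). Ramp1, a subunit of the receptor for the neuropeptide CGRP, had 25.0, 22.4 and 22.2 CPM against 36.8, 33.3 and 37.4 CPM (0.63 ± 0.10, adjusted p = 0.00256). These 4 genes were called under all 18 alternatives tried.

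The BK potassium channel was represented by its pore Kcnma1 and its auxiliary subunit Lrrc26. Lrrc26 had 7.15, 6.98 and 6.33 CPM against 9.06, 8.49 and 11.2 CPM, a change of 0.48 ± 0.15 that passed narrowly (edgeR adjusted p = 0.0498). It was lost without any 1 of the 6 libraries, with adjusted p from 0.0570 to 0.168. Kcnma1 had 26.7, 24.8 and 20.8 CPM against 31.3, 29.6 and 29.0 CPM and did not pass (0.32 ± 0.11, adjusted p = 0.0669), and without wild type replicate 1 it passed (0.42, adjusted p = 0.0326). Kcnma1 is also expressed in smooth muscle, whose 6 markers summed to 11.1 to 14.2 CPM in wild type and 9.99 to 11.3 CPM in knockout. Best2, a bestrophin anion channel of colonic goblet cells, had 6.87, 1.55 and 4.12 CPM against 5.05, 7.80 and 9.44 CPM. Wild type replicate 1 was above knockout replicate 1, and the difference of 0.83 ± 0.54 did not pass (adjusted p = 0.357).

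The 38 genes also differed in how steady they were among replicates. The coefficient of variation was above 20% for 12 genes in wild type and for 5 in knockout, and it was higher in wild type for 27 of the 38. Wild type replicate 1 was the highest wild type library for 24 of the genes, replicate 2 for 13 and replicate 3 for 1. Summed over the 38 genes, the level was 11698, 7891 and 8353 CPM in wild type and 14880, 15206 and 14180 CPM in knockout. Fcgbp and Clca1 alone made 44.4 to 61.0% of this sum, so the sum mostly follows that pair of genes. As a share of all counts, before TMM scaling, the 38 genes took 0.747 to 1.00% in wild type and 1.49 to 1.71% in knockout. All counts here include the mitochondrially encoded genes, at 45.3 to 48.4% in wild type and 34.7 to 36.3% in knockout. A smaller mitochondrial share by itself raises the share of other genes.

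Hoxb13, a gene of the distal colon, was set beside the 38 genes. It was chosen after its values were seen, so an order of libraries shared with it cannot test position along the colon. Hoxb13 had 68.9, 24.8 and 37.8 CPM in wild type and 41.7, 68.9 and 66.5 CPM in knockout. Its order among the wild type libraries, replicate 1 highest and replicate 2 lowest, was shared by 13 of the 38 genes (34.2%) and by 16.7% of all genes tested. Its order among the knockout libraries was shared by 5 of the 38 (13.2%) and by 14.9% of all genes tested. Another distal gene, Hoxa13, had the same wild type order (18.1, 7.92 and 11.8 CPM). Hoxd13 did not, with replicate 3 lowest (5.66, 1.58 and 1.30 CPM). Among the 13 genes with the wild type order of Hoxb13 were Fcgbp, Zg16, Wfdc2, Rep15 and Best2. Of the 13, 3 were called higher, Clca1, Oit1 and Foxa2. The other called genes, Klk1 and Creb3l4 among them, had other orders among the wild type libraries. Of 6 distal colon genes 5 could be tested and 0 passed, though 1 rose when wild type replicate 1 or knockout replicate 1 was left out or with no filter, with a summed level of 36.2 to 95.3 CPM in wild type and 57.7 to 100.5 CPM in knockout. Wild type replicate 1, the highest for Hoxb13 in wild type, is also the library whose label names DTT. The parts of colon position and of the wash in the goblet cell values were not tested.

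**Figure D3:**
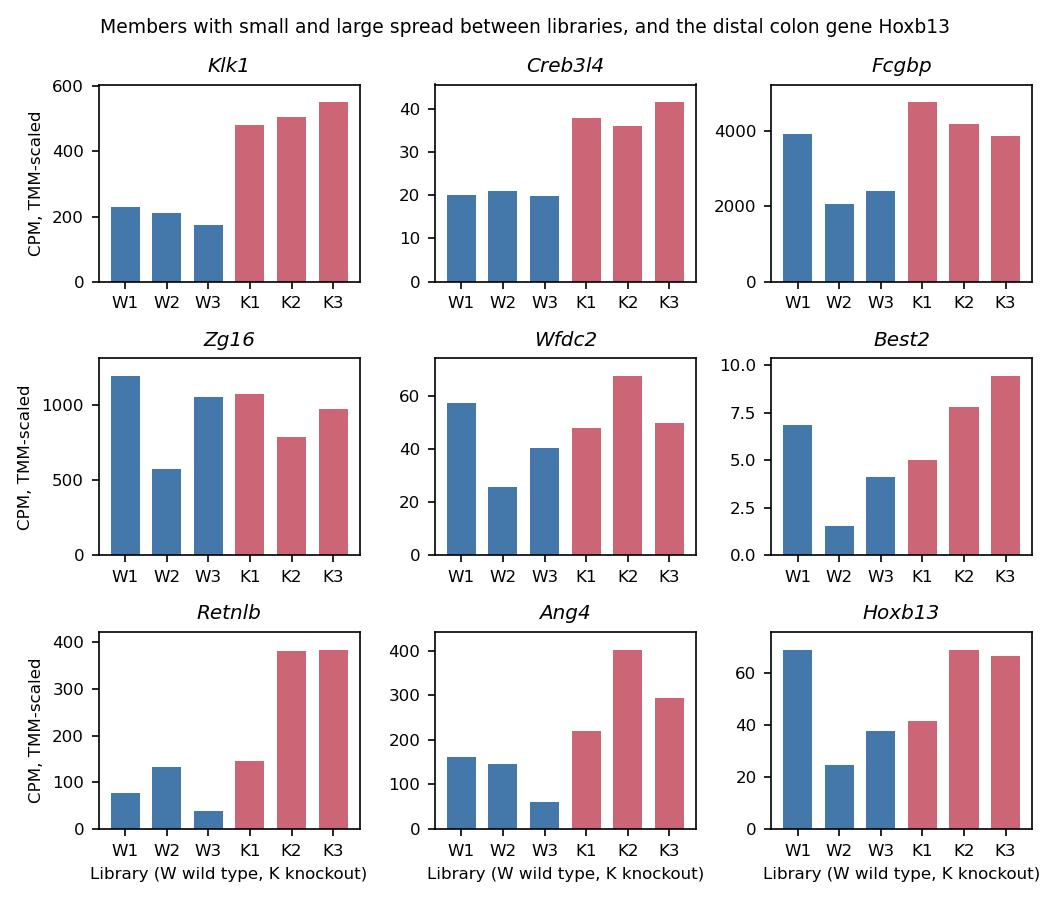
Level of 8 goblet cell genes and of the distal colon gene Hoxb13 in each library (bars, CPM, TMM-scaled, each axis from 0; W1 to W3 wild type, K1 to K3 knockout). Klk1 and Creb3l4 separate by genotype, Wfdc2 and Best2 share the order of Hoxb13 among the wild type libraries, and Retnlb and Ang4 are high in knockout with wide spread.

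Levels can be ordered between genes only per length, so counts were divided by exon length in kilobases and scaled to the same total (as in TPM) in each library, and the order was read within a genotype. In wild type Agr2 was first with 1263 ± 243 (SD, n = 3), followed by Zg16 with 1207 ± 370, Spink4 with 917 ± 127 and Clca1 with 835 ± 293. Each neighbour in this order differed from the next by less than the larger of their SDs. Oit1 followed with 501 ± 9.45 and Fcgbp with 429 ± 132, which had the most counts and an exon length of 10497 bases. At the other end were Foxa2 with 4.08 ± 0.769, Best2 with 3.01 ± 1.81 and Kcnma1 with 2.31 ± 0.280. In knockout Clca1 was first with 2561 ± 427, before Agr2 with 1999 ± 202, Spink4 with 1947 ± 303 and Zg16 with 1703 ± 257, and Klk1 moved from rank 7 to rank 5.

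The upstream regulators of the lineage and the chief mucus components outside the 38 genes did not all move together. Atoh1 had 29.4, 26.5 and 26.2 CPM against 40.4, 54.9 and 60.5 CPM and rose by 0.92 ± 0.14 (edgeR adjusted p = 0.00257). Spdef had 64.7, 72.3 and 68.8 CPM against 96.1, 107 and 131 CPM and rose by 0.70 ± 0.12 (adjusted p = 0.00373). Of 13 secretory fate regulators 3 rose and 0 fell, the other being the Notch target Hes1. Library totals alone gave 8, DESeq2 and no filter 6 each, thinning and leaving out knockout replicate 1 gave 5 each, and leaving out knockout replicate 3 gave 2. Muc2 had 7023, 7852 and 7184 CPM against 8844, 7557 and 7530.0 CPM and did not pass (0.12 ± 0.16, adjusted p = 0.648). The trefoil peptide gene Tff3 had 381, 212 and 355 CPM against 296, 245 and 284 CPM (-0.20 ± 0.20, adjusted p = 0.541). Of 13 mucin and trefoil genes 11 could be tested and 0 passed in either direction, with a median of -0.32. With pan-epithelial scaling 3 fell, and 1 fell when wild type replicate 1 or knockout replicate 1 was left out or with no filter. The median ran from -0.41 to -0.12 with 1 library left out and was -0.03 with library totals, where 1 rose.

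On a list of enzymes of mucin glycosylation 14 of 24 tested genes rose and 0 fell, with a median of 0.55. The 14 include Fut8, the core fucosyltransferase of N-glycans, which does not build mucin O-glycans. The largest changes were those of Casd1, a sialic acid O-acetyltransferase (0.94 ± 0.12, edgeR adjusted p = 0.00130), and Galnt5, which starts O-glycan chains (0.89 ± 0.10, adjusted p = 0.000785). Of 29 genes of endoplasmic reticulum folding and the unfolded protein response 10 rose and 0 fell, with a median of 0.33, led by the disulfide isomerase family members Pdia5 (0.84 ± 0.09, adjusted p = 0.000785) and Pdia6 (0.76 ± 0.12, adjusted p = 0.00320). This count was 26 with library totals only, 18 with no filter, 5 with scaling to the pan-epithelial genes, 15 when wild type replicate 1 was left out and 4 when knockout replicate 3 was left out. Ern2, the stress sensor of mucus-secreting epithelia, had 127 ± 12.7 and 160.3 ± 18.6 CPM (SD, n = 3) and did not pass (0.34 ± 0.12, adjusted p = 0.0740).

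Other cell types of the epithelium were read from their markers. Deep crypt secretory cells, which lie among the colonic stem cells and share genes with goblet cells, had 3 of 7 markers higher and 0 lower, led by Nox1 (1.37 ± 0.16, edgeR adjusted p = 0.00134) and Cd24a (0.92 ± 0.13, adjusted p = 0.00191). Their summed level was 296 to 343 CPM in wild type and 492 to 800.4 CPM in knockout. Their defining marker Reg4 did not pass (adjusted p = 0.205), and knockout replicate 2 had 317 CPM where the other 5 libraries had 53.4 to 113 CPM. Of the 7, 5 rose with library totals only. Of 19 absorptive colonocyte markers 1 rose and 2 fell, with a median of -0.35. The 2 became 10 with pan-epithelial scaling, 6 when wild type replicate 2 was left out, 5 with no filter, and 0 when wild type replicate 3 or any knockout library was left out or with limma-voom or library totals. Of 13 tested enteroendocrine markers 1 rose and 1 fell, with 5 lower under pan-epithelial scaling, 3 under DESeq2 or no filter, and 0 when any wild type library was left out. Of 11 tested tuft cell markers 2 rose and 0 fell, but 0 rose with the replicate number as a block, when thinned, with pan-epithelial scaling, with 2 of the other gene filters or in 4 of 6 fits that left out 1 library, while 6 rose with library totals. The part of a shift between these cell types in the values of the 38 genes was not tested.

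In the authors' deposited table, which comes from the same libraries and is not independent evidence, 21 of the 38 genes were higher at an adjusted p under 0.05 and 0 lower, against 10% of its 15138 genes higher. Of these, 17 were also called here. The 4 called only in the authors' deposited table were Fcgbp (log2 fold change 0.62, adjusted p = 0.0101), Retnlb (1.89, 0.0173), Ang4 (1.32, 0.0397) and Rep15 (0.66, 0.00549). Lrrc26 was called only here.

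Calls of 11 of the 18 genes held in every fit that left out 1 library. These were Klk1, Qsox1, Foxa2, Foxa3, Creb3l4, Sytl4, Rab3d, Slc12a8, Ramp1, Hepacam2 and Tspan13, and all but Sytl4 were also called under every other alternative tried. With 1 library left out, the number that rose ran from 12 without knockout replicate 3 to 21 without wild type replicate 1. The latter is the library whose label names DTT, and 0 fell in each fit. Those fits also had the lowest and the highest share of all genes tested called higher, 3.98% and 10.04%. That share was 9.43% in the reported fit. With library totals in place of TMM, 32 of the 38 rose and 32.1% of all genes tested were higher. This scaling moved the median of all genes by 0.28. The median of the 38 genes stood 0.49 to 0.64 above that of all genes throughout. A change of scaling moves both medians alike, so the gap stayed at 0.56 to 0.57 under every scaling. It therefore does not test the choice of scaling.

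**Figure D4:**
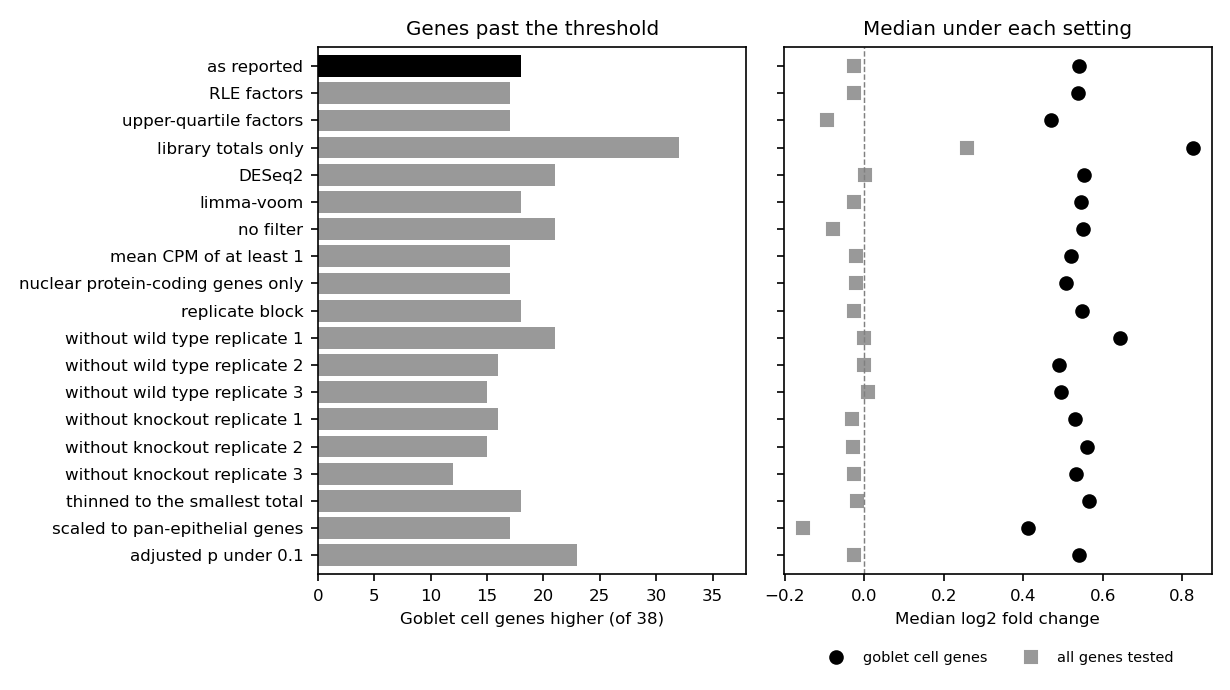
Left, number of the 38 goblet cell genes higher in knockout under each way of fitting (bars, from 0), with the reported fit in black. Right, median log2 fold change of the 38 genes (circles) and of all genes tested (squares), where the circles stay to the right of the squares in every row and the count runs from 12 to 32. A change of scaling moves circles and squares alike and cannot change their order.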

How the data were processed

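RNA-seq was done on a colon epithelial fraction from 3 wild type and 3 Lingo3-/- libraries, made from total RNA with a stranded kit after ribosomal RNA removal, per the labels' protocols. Per the submitters' processing notes, the tools were Trimmomatic 0.39, STAR, HTSeq and DESeq2 and the build was GRCm38. Other versions, the annotation release and the strand setting of the counting were not given in the sources used. Counts in the deposited table are raw, whole numbers per gene, and the authors made them with HTSeq per the same notes. Its summary lines, 53.6 to 60.1% of all reads, were left out of library sizes. The deposited comparison gives log2 fold changes and p-values of the authors' DESeq2 run, per the file headers, and was used only as a description.

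Here edgeR 4.0.16 (R 4.3.3) was fitted with genotype as the only term to the 16856 genes kept by filterByExpr (minimum count 10, minimum total 15), with TMM factors, the robust 2-sided quasi-likelihood test and Benjamini-Hochberg adjustment over all genes tested. The threshold was 0.05. SE is the log2 fold change divided by the square root of F. A floor of 3 counts equals 0.113 to 0.240 CPM and covers counting error only, as no molecular identifiers were used. Lengths, coordinates and overlaps are from GENCODE M21 (GRCm38), where 45229 of 46078 identifiers (98.2%) had an entry. Alternatives were RLE, upper-quartile and total-count scaling, DESeq2 1.42.0, limma-voom (limma 3.58.1), other filters, nuclear protein-coding genes only, the replicate number as a block, leaving out each library, and an adjusted p under 0.1. Thinning to the smallest total and scaling to 9 pan-epithelial genes were added after seeing the data. The edgeR steps were tested on simulated data. No library was a copy of another, since chi-square divided by its degrees of freedom was 8.47 or more for each pair within a genotype.

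The 38 members and all gene lists were chosen with earlier results of these data known. By rule, all 38 members were described, and outside them Muc2, Tff3, Atoh1, Spdef, Ern2, Lingo3 and at most 2 genes per list and direction with the largest change. Hes1, Hoxb13, Hoxa13, Hoxd13, Reg4, Fut8, Igha, Jchain, Derl3, the Paneth cell genes and the mast cell genes were named after their values were seen.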

Additional observations from a re-analysis of the deposited data

How the results depend on the processing

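With 3 libraries per genotype, 11868000 to 28029583 counts per library and no statement that libraries come from separate mice, levels under the floor of 0.113 to 0.240 CPM could not be measured. Thinned to the smallest total, 18 of the 38 rose. Of the 38 genes, 18 rose in the reported fit, 32 with library totals only, 12 to 21 with 1 library left out, and 12 to 32 over all alternatives, with 0 lower in each. All genes changed numbered 2596 in the reported fit, 5835 with library totals only, 3942 at an adjusted p under 0.1, 3655 with no filter and 1124 to 2686 with 1 library left out. Of these calls 61.2% were higher as reported, 92.8% with library totals, 45.4% with upper-quartile factors and 23.9% with scaling to the pan-epithelial genes. The median of the 38 genes was 0.54 as reported, 0.47 with upper-quartile factors, 0.83 with library totals, 0.51 with nuclear protein-coding genes only, 0.41 with pan-epithelial scaling and 0.49 to 0.64 with 1 library left out. With the replicate number as a block 18 of the 38 rose. The numbers were not taken to pair the libraries. Same-numbered libraries had correlations of deviations of -0.010, -0.117 and -0.104. Deviations from a mean of 3 libraries constrain each other, so these values show no pairing but cannot exclude one. Signs turned only for genes that did not pass. Zg16 had -0.056 with upper-quartile factors, -0.0066 with a mean CPM of at least 1, -0.022 with nuclear genes only, -0.0022 when thinned, -0.096 with pan-epithelial scaling and -0.22 to 0.24 with 1 library left out. Foxa1 had -0.037, -0.0013, -0.011 and -0.098 with upper-quartile factors, nuclear genes, thinning and pan-epithelial scaling. Fer1l6 had -0.040, -0.0025 and -0.087 with upper-quartile factors, nuclear genes and pan-epithelial scaling, and -0.089 to 0.29 with 1 library left out. Nlrp6 had -0.0035 with pan-epithelial scaling and -0.065 to 0.31 with 1 library left out, and Stard3nl and Creb3l1 had -0.062 and -0.0012 with pan-epithelial scaling. Lrrc26 was also lost with RLE, upper-quartile, DESeq2, limma-voom, the CPM filter, nuclear genes, the block (adjusted p = 0.0890), thinning and pan-epithelial scaling, and Fcgbp passed with the block (0.66, adjusted p = 0.0222). The cause was not tested.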

Other observations

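Relatives of the 38 genes were counted in the same libraries. Clca3b, a relative of Clca1 in the calcium-activated chloride channel regulator family, had a mean of 117 CPM in wild type and 229 CPM in knockout and rose by 0.97 ± 0.14 on the log2 scale (edgeR adjusted p = 0.00191). Clca4a, which is typical of absorptive cells, had 523 and 408 CPM and did not pass (-0.36 ± 0.20, adjusted p = 0.251). Ang, the parent gene of the angiogenin family, had 10.75 and 15.04 CPM and rose by 0.48 ± 0.12 (adjusted p = 0.0216), while Ang2, Ang5 and Ang6 had 0 counts in all libraries. Retnla, a relative of Retnlb, had 1.69 and 1.85 CPM and did not pass (adjusted p = 0.829).

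Among relatives of Creb3l4 and the calpains, 3 moved the other way. They were picked out after their values were seen. Creb3l2 fell from 16.6 to 9.67 CPM (-0.79 ± 0.20, edgeR adjusted p = 0.0266) and Creb3l3 from 8.09 to 5.05 CPM (-0.67 ± 0.19, adjusted p = 0.0314), where Creb3l4 rose from 20.2 to 38.4 CPM. Capn5 fell from 119 to 88.2 CPM (-0.43 ± 0.12, adjusted p = 0.0284), where Capn9 rose from 28.6 to 41.2 CPM. Whether the changes within a family differ was not tested.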
